A study of Mus musculus with 9 samples.

Results

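Genes beside Cbx5, the mouse gene for the heterochromatin protein HP1a, were followed in livers labelled as lacking HP1a. The set holds the 9 symbols Hnrnpa1, Smug1, Nfe2, Copz1, Zfp385a, Itga5, Gtsf1, Nckap1l and Ano6, taken by name from a table of 22701 genes. Rows for 8 of them were found and Gtsf1 was not analysed here. Of these 8, 7 had a mean of at least 10 normalised reads over the 9 libraries and were tested, together with 13845 genes in all. Nfe2 did not reach that mean.

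RNA was sequenced from whole liver at an age of 5 weeks, and the labelled strain background was C57BL/6, 129svPas. The 3 WT livers were the controls. The HP1a_KO group (2 livers) was HP1a-/-, the HP1ab_KO group (1 liver) was HP1a-/- and HP1b liver-/-, and the HP1ag_KO group (3 livers) was HP1a-/- and HP1g liver-/-, where HP1b is the product of Cbx1 and HP1g of Cbx3. All 6 mutant livers were therefore labelled HP1a-/-, and as 1 group they are called HP1a-null. The driver of the liver deletions is not given in the sources used here. Labels give an animal number for each liver but no litter or sex, so p-values measure only the spread between these livers. The null allele and any DNA linked to it on chromosome 15 came together in every mutant, and their effects cannot be told apart.

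HP1 proteins bind histone H3 that is methylated on a lysine of its tail, and they are known for compacting pericentromeric heterochromatin and for roles at active genes. The members have unrelated jobs. Hnrnpa1 encodes a splicing factor, Copz1 a subunit of the coat of vesicles that return from the Golgi, and Smug1 a glycosylase that removes uracil from DNA. Itga5 encodes the alpha chain of the fibronectin receptor, Nckap1l the blood-cell form of a subunit of the actin-regulating WAVE complex, and Ano6 a calcium-activated phospholipid scramblase. Nfe2 encodes a transcription factor of megakaryocytes and red cell precursors, Gtsf1 a germline factor of transposon silencing, and Zfp385a a zinc finger protein.

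In GENCODE coordinates (GRCm38), Cbx5 lies on the minus strand at chr15:103191544-103239816. Hnrnpa1 starts beside its 5′ end on the opposite strand, at chr15:103240432-103246692, with 615 bases between the gene bodies. Nfe2 follows at chr15:103248212-103258403, Copz1 at chr15:103272714-103299868, Zfp385a at chr15:103313895-103340093, Itga5 at chr15:103344286-103366763 and Nckap1l at chr15:103453794-103498810. On the other side of Cbx5, Smug1 lies at chr15:103153290-103167092. Hnrnpa1, Copz1 and Nckap1l are on the plus strand, and Nfe2, Zfp385a, Itga5 and Smug1 on the minus strand. These 7 neighbours lie between 0.616 kb (Hnrnpa1) and 214 kb (Nckap1l) from the Cbx5 gene body. Ano6 is not a neighbour in that sense, because its gene body at chr15:95790843-95974751 is 7.22 Mb away.

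Cbx5 and Hnrnpa1 are divergent genes, and their promoters are shown because both start in the same short intergenic stretch. The RefSeq promoter windows (GRCm38.p6, 250 bases before to 50 after the start site, 5′ to 3′ on the strand of the gene) are chr15:103239803-103240102 on the minus strand for Cbx5 and chr15:103240147-103240446 on the plus strand for Hnrnpa1. The start sites are 545 bases apart and 44 bases separate the windows. Zfp385a, at chr15:103340037-103340336 on the minus strand, is shown beside them as the member with the largest differences between groups. Capitals mark every GC box (GGGCGG) and CCAAT box (CCAAT) found on either strand.
Cbx5: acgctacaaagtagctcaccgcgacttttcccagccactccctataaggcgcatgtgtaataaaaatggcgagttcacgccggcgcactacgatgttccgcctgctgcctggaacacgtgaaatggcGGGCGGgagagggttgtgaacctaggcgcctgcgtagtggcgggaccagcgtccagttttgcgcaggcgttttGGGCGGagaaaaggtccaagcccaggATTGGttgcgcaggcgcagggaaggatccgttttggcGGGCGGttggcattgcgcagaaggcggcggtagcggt
Hnrnpa1: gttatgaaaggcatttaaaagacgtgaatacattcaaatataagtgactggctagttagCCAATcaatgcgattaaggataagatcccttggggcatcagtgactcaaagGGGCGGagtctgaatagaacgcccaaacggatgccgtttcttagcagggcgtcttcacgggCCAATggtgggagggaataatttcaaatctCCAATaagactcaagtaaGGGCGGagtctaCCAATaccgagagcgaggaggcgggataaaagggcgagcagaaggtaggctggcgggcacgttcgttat
Zfp385a: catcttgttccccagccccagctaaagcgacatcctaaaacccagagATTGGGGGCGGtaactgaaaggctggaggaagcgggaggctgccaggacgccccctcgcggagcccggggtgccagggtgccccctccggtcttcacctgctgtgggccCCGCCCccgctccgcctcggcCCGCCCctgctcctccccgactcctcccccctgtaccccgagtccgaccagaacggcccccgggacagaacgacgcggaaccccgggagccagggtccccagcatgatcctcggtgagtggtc
The Cbx5 window held 3 GC boxes and 1 CCAAT box, with 29 CpG dinucleotides and a GC content of 60.3%. In the Hnrnpa1 window there were 2 GC boxes, 4 CCAAT boxes, 16 CpG and a GC content of 48.3%. The Zfp385a window held 3 GC boxes, 1 CCAAT box, 23 CpG and a GC content of 70.0%; its CCAAT box, read on the minus strand of the window, adjoins a GC box without overlap. Among all 32851 promoter windows of the table, 35.7% held a GC box and 37.4% a CCAAT box, and the medians were 7 CpG and 52.7% GC. A TATA box (TATAAA, either strand) was in 13.6% of all windows and in none of these 3. RefSeq also lists a second start for Cbx5 inside the gene (window chr15:103215303-103215602) and one for Zfp385a (chr15:103334289-103334588, with 2 CpG, 1 GC box and 2 CCAAT boxes). No chromatin data were used here, so the windows are given as sequence only.

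The Cbx5 transcript was set beside the labels, and HP1a protein was not measured here. It stood at 1542, 1167 and 997 normalised reads in the 3 WT livers, at 576 and 501 in the 2 HP1a_KO livers, at 663 in the HP1ab_KO liver, and at 663, 813 and 753 in HP1ag_KO. Every mutant value lay below every WT value. The log2 difference, HP1a-null minus WT on the log2(value + 1) scale, was -0.89 ± 0.17 (SE), or 53.8% of WT, with a limma adjusted p of 0.748. With DESeq2 on the reads behind the values the adjusted p was 0.0059. Transcript from the locus therefore remained measurable in the HP1a-null livers, and which exons the allele removes is not given in the sources used here. Library totals ran from 16266423 reads (HP1a_KO replicate 1) to 36161177, and the other 8 libraries held at least 26375545. The hepatocyte markers Alb, Apob, Ttr, Tat, Serpina1a and Cyp2e1 summed to between 2686056 and 3555487 normalised reads in each library, and none of the 6 was at 0 in any library.

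Levels between genes were compared per kilobase of exon. In WT liver, Copz1 was the most abundant member at 602 ± 45.9 normalised reads per kb (SD, n = 3), followed by Hnrnpa1 at 243 ± 31.4. Itga5 (74.6 ± 0.72), Nckap1l (58.3 ± 2.44) and Smug1 (53.5 ± 6.03) came next, then Zfp385a (35.1 ± 1.04) and Ano6 (27.1 ± 0.68). Nckap1l and Smug1 overlapped, with ranges of 56.3 to 61.0 and 47.0 to 58.9 per kb, and no other neighbours in this order did. Nfe2 was close to silent at 2.18 ± 0.60 per kb, which corresponds to 5 to 8 reads in a WT library.

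The genes nearest to Cbx5 stayed close to their WT level. Hnrnpa1, which shares the intergenic space with Cbx5, had 722, 880 and 698 normalised reads in WT, 883 and 865 in the 2 HP1a_KO livers, 866 in the HP1ab_KO liver, and 832, 774 and 777 in HP1ag_KO. The spread of the 3 WT livers contained all but 1 of the mutant values, the exception being HP1a_KO replicate 1, just above it. HP1a-null minus WT was 0.12 ± 0.09 on the log2 scale (limma adjusted p = 0.935), with a 95% interval of 94.3% to 126% of WT. A decrease of Hnrnpa1 as large as that of Cbx5 lies outside this interval.

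Smug1, on the other flank, had 336, 289 and 361 normalised reads in WT, 295 and 280 in the 2 HP1a_KO livers, 312 in the HP1ab_KO liver, and 341, 323 and 301 in HP1ag_KO. The groups overlapped, and the difference was -0.09 ± 0.11 (limma adjusted p = 0.964, interval 80.1% to 111% of WT). Copz1 had 2388, 2057 and 2172 in WT, 2499 and 2398 in the 2 HP1a_KO livers, 2134 in the HP1ab_KO liver, and 1952, 2396 and 1848 in HP1ag_KO. Its 2 HP1a_KO values were just above the WT range and those of HP1ag_KO lay on both sides of it, and the difference over all 6 mutants was -0.01 ± 0.11 (limma adjusted p = 0.998, interval 83.9% to 118%), with a sign that turned under other scalings. Nfe2 was counted in 5 to 12 reads per library, from 4.45 normalised reads in WT replicate 1 to 20.2 in HP1a_KO replicate 1, too few for a comparison.

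Zfp385a, Itga5, Nckap1l and Ano6 were above every WT liver in both HP1a_KO livers and in the HP1ab_KO liver, and mixed in HP1ag_KO. Zfp385a had 85.4, 90.5 and 89.0 normalised reads in WT, 226 and 185 in the 2 HP1a_KO livers, 181 in the HP1ab_KO liver, and 131, 85.2 and 86.1 in HP1ag_KO. The HP1a_KO and HP1ab_KO livers were all above WT by more than the spread of WT, HP1ag_KO replicate 1 was between, and HP1ag_KO replicates 2 and 3 were at the WT level.

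Itga5 had 367, 365 and 372 normalised reads in WT, 648 and 523 in the 2 HP1a_KO livers, 450 in the HP1ab_KO liver, and 365, 431 and 321 in HP1ag_KO. Here too HP1a_KO and HP1ab_KO exceeded WT, whereas the HP1ag_KO values lay on both sides of it. Nckap1l had 362, 341 and 334 in WT, 598 and 471 in the 2 HP1a_KO livers, 521 in the HP1ab_KO liver, and 499, 305 and 388 in HP1ag_KO. HP1ag_KO replicates 1 and 3 were above WT and replicate 2 was below.

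Ano6, the distant member, was high in the same 3 livers. It had 337, 338 and 323 normalised reads in WT, 596 and 517 in the 2 HP1a_KO livers, 450 in the HP1ab_KO liver, and 419, 324 and 338 in HP1ag_KO. In each of these 4 genes HP1a_KO replicate 1, the library with the fewest reads, was the highest of the 9.

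**Figure D1:**
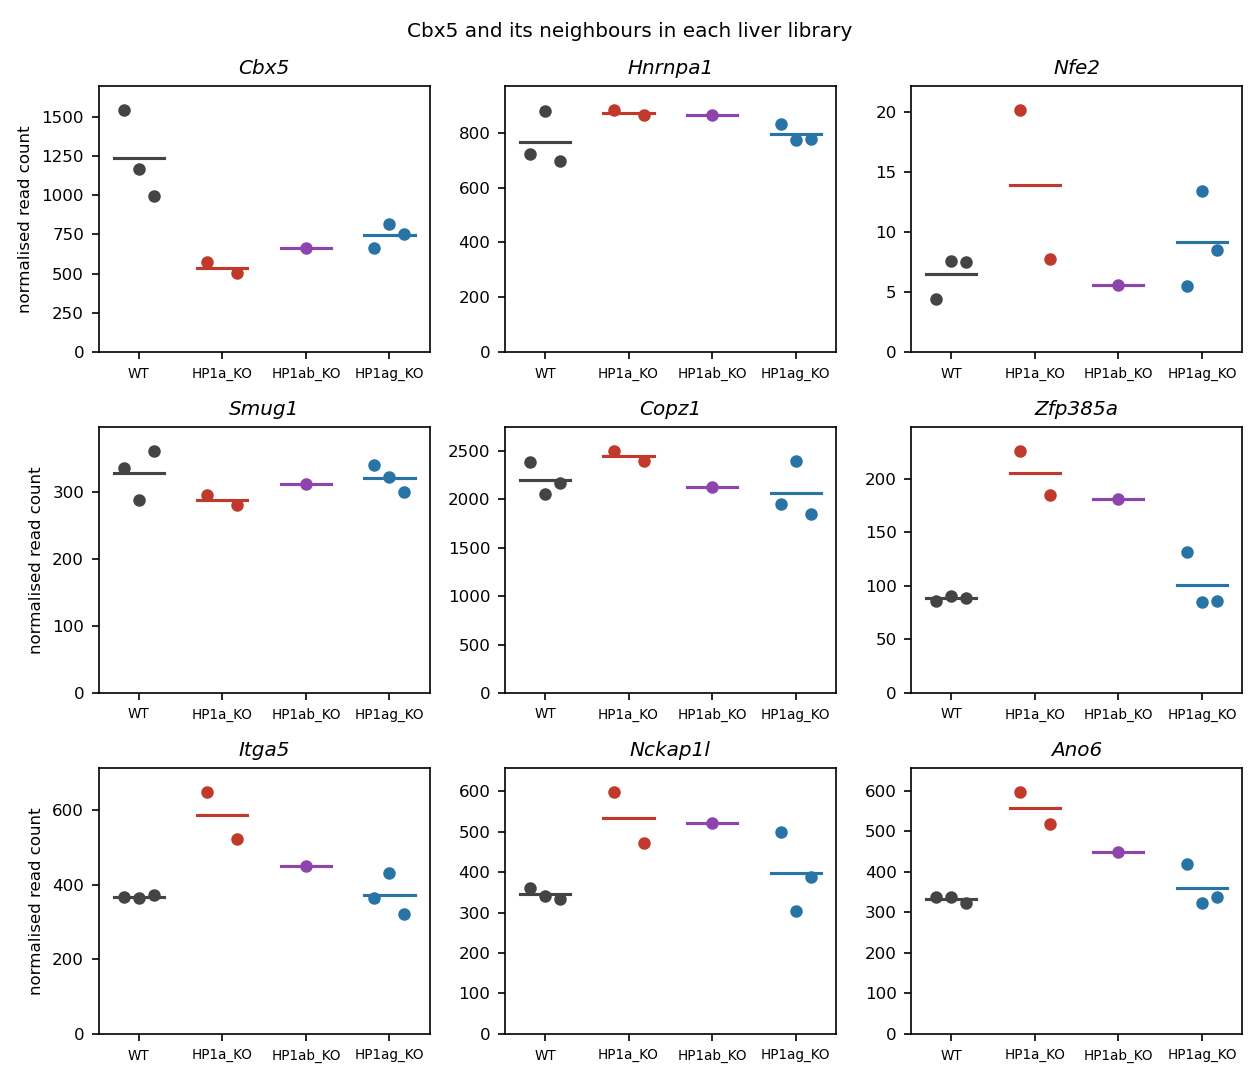
Normalised read count (vertical axis, linear from 0) of Cbx5 and the 8 measured members in each liver, by group (horizontal axis); points are libraries and bars are group means. Cbx5 is lower in every mutant, whereas Zfp385a, Itga5, Nckap1l and Ano6 are highest in HP1a_KO and Hnrnpa1, Smug1 and Copz1 stay near WT.

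Taken over all 6 HP1a-null livers against WT, no member was called by limma after adjustment over all genes, and neither was any other gene (0% of 13845). At an unadjusted limma p under 0.05, 0 of 7 members passed where 5.66% of all genes did. This fit takes the mutant livers as 1 group, so differences between the mutant genotypes count as spread in its error. After adjustment edgeR called 0 members and 0 genes. Unadjusted, edgeR put Zfp385a, Nckap1l and Ano6 under 0.05, all higher, where 792 genes (5.72%) passed in either direction. Hnrnpa1, Smug1, Copz1 and Itga5 did not pass in edgeR. DESeq2 called 0.202% of genes and no member. The groups overlapped for all 7 members, whereas all mutant livers were higher in 1.40% of genes and lower in 1.74%. The differences were 0.65 ± 0.31 for Zfp385a, 0.39 ± 0.19 for Nckap1l, 0.37 ± 0.18 for Ano6 and 0.27 ± 0.19 for Itga5, with limma adjusted p-values of 0.876, 0.876, 0.881 and 0.926. When the HP1ag_KO livers were left out, an alternative added after seeing the data, they became 1.15, 0.61, 0.64 and 0.54, and limma called none of the 4.

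HP1a_KO alone was then compared with WT (2 livers against the same 3). Zfp385a was higher by 1.20 ± 0.22 on the log2 scale, or 230% of WT with an interval of 161% to 328%. Ano6 was higher by 0.74 ± 0.14 (167% of WT), Itga5 by 0.66 ± 0.15 (158%) and Nckap1l by 0.62 ± 0.21 (154%). At an unadjusted limma p under 0.05 these 4 of 7 members passed, all higher, where 10.1% of all genes passed in either direction and 5.48% higher. After adjustment none passed (adjusted p = 0.397 for Zfp385a, Ano6 and Itga5, and 0.457 for Nckap1l), as was the case for all genes (0%), with edgeR also calling 0 genes. DESeq2 called 2 of 7 members, both higher, where it called 0.628% of all genes in either direction and 0.433% higher. These were Zfp385a (adjusted p = 0.0062) and Ano6 (adjusted p = 0.0143), while Itga5 (0.0533) and Nckap1l (0.254) were not called. The 2 HP1a_KO livers carry consecutive animal numbers in the labels (M1096 and M1097), and whether they were related is not stated. With a block for consecutive numbers, added after seeing the data, the limma adjusted p of each of the 4 genes was 0.645. Both HP1a_KO livers were above all WT livers in 5 of 7 members, Copz1 being the fifth, against 14.7% of genes.

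The nearest genes had smaller estimates in HP1a_KO, and a difference between members was not tested. Hnrnpa1 was at 115% of WT (94.4% to 139%), Copz1 at 111% (90.5% to 137%) and Smug1 at 88.0% (70.8% to 109%), with limma adjusted p-values of 0.597, 0.691 and 0.647.

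The single HP1ab_KO liver was compared in the same fit, on the assumption that it varied like the other groups. Zfp385a was higher by 1.03 ± 0.28, Nckap1l by 0.59 ± 0.26, Ano6 by 0.43 ± 0.18 and Itga5 by 0.29 ± 0.19, all with a limma adjusted p of 0.999 (0% of genes called, 3.70% at an unadjusted p under 0.05). These errors come from the spread of the other groups, and the spread of this genotype was not measured. The liver was above all WT livers in 4 of 7 members, against 22.6% of genes. DESeq2 called 0.0795% of genes and no member.

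In HP1ag_KO the same 4 genes were near WT. The differences were 0.16 ± 0.20 for Zfp385a, 0.17 ± 0.18 for Nckap1l, 0.11 ± 0.13 for Ano6 and 0.01 ± 0.14 for Itga5, and limma adjusted p-values of all 7 members ran from 0.842 to 0.995. No member passed unadjusted, where 7.58% of genes did, and none was called by DESeq2, which called 0.715% of genes. All 7 members overlapped WT, where 6.46% of genes were higher and 7.05% lower in all 3 livers. The interval for Zfp385a, 81.5% to 153% of WT, ends below the HP1a_KO estimate. Without HP1ag_KO replicate 1 the differences of Zfp385a, Nckap1l and Ano6 were -0.04, -0.01 and -0.01. These comparisons share the 3 WT livers.

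**Figure D2:**
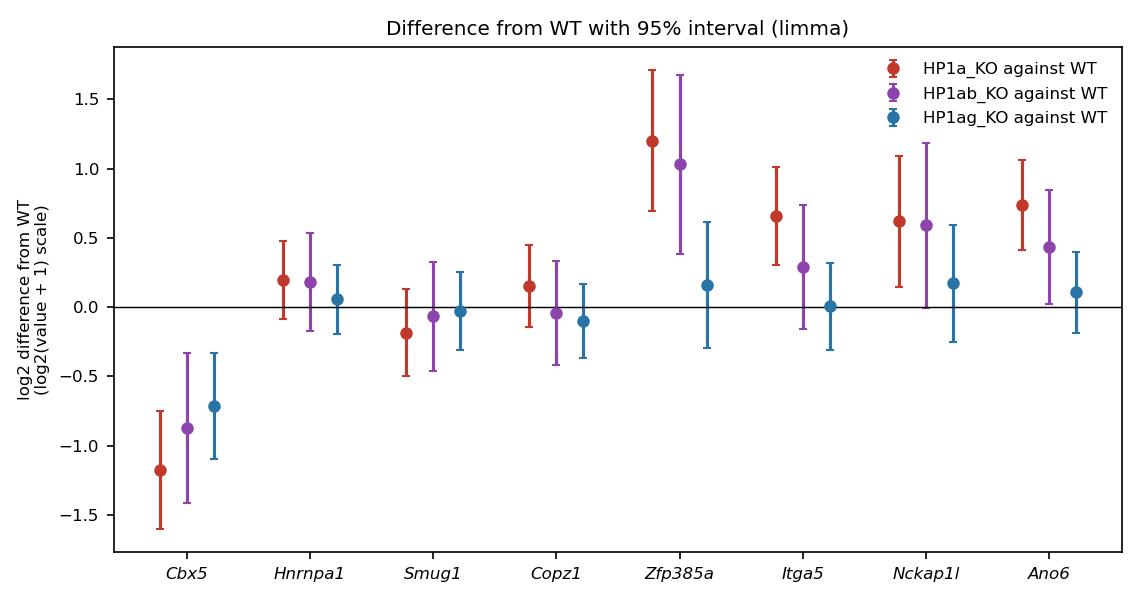
Log2 difference from WT (vertical axis, log2(value + 1) scale) of Cbx5 and the 7 tested members in HP1a_KO, HP1ab_KO and HP1ag_KO; points are limma estimates and bars their 95% intervals. The intervals of Zfp385a, Itga5, Nckap1l and Ano6 exclude 0 in HP1a_KO and include it in HP1ag_KO; those of HP1ab_KO, 1 liver, rest on the spread of the other groups.

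The difference between the mutant groups was tested directly in HP1ag_KO against HP1a_KO, a comparison added after seeing the data. Zfp385a was at 48.6% of its HP1a_KO level (log2 difference -1.04 ± 0.22), Itga5 at 63.5% (-0.65 ± 0.15), Ano6 at 64.6% (-0.63 ± 0.14) and Nckap1l at 73.4% (-0.45 ± 0.21). Limma adjusted p-values were 0.135, 0.141, 0.141 and 0.331, with 0% of all genes called. At an unadjusted limma p under 0.05, 3 of 7 members passed (Zfp385a, Itga5 and Ano6), where 16.2% of all genes did in either direction. DESeq2 called Zfp385a (adjusted p = 0.0166), Itga5 (0.0275) and Ano6 (0.0272) lower, that is 3 of 7 members where 1.60% of genes were called lower. All HP1ag_KO livers were below both HP1a_KO livers in 5 of 7 members (Zfp385a, Itga5, Ano6, Hnrnpa1 and Copz1), against 19.2% of genes. Smug1 and Cbx5 went the other way, with all HP1ag_KO livers above both HP1a_KO livers, as in 2422 of 13845 genes. Cbx5 was at 138% of its HP1a_KO level (0.46 ± 0.19, limma adjusted p = 0.279).

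Position along chromosome 15 was examined for all its genes, not only the named ones. Within 0.25 Mb of Cbx5 the table had 13 other genes, of which the 6 that passed the filter were members. Hoxc4, Hoxc5, Hoxc6 and Hoxc8, developmental homeobox genes, the microRNA gene Mir148b inside Copz1 and the receptor gene Gpr84 were at a mean of at most 2.84 normalised reads. Over HP1a-null against WT, the 8 tested genes within 0.5 Mb had a median log2 difference of 0.11, with 6 higher and 2 lower, beside -0.01 over all genes. The median was 0.02 over 18 genes at 0.5 to 1 Mb, 0.18 over 13 genes at 1 to 2 Mb, -0.01 over 51 genes at 2 to 5 Mb and -0.02 over 28 genes at 5 to 10 Mb. None of the 8 nearest genes passed at an unadjusted limma p under 0.05.

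In HP1a_KO against WT the median within 0.5 Mb was 0.17, with 3 of 8 genes passing unadjusted, all of them members. At 0.5 to 1 Mb it was 0.03 with 1 of 18 passing, and over the 532 tested genes of chromosome 15 apart from Cbx5 8.83% passed, beside 10.1% of all genes. The 3 were not the nearest: Zfp385a, Itga5 and Nckap1l lie 74.1, 104 and 214 kb from Cbx5, beyond Smug1, Hnrnpa1 and Copz1.

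**Figure D3:**
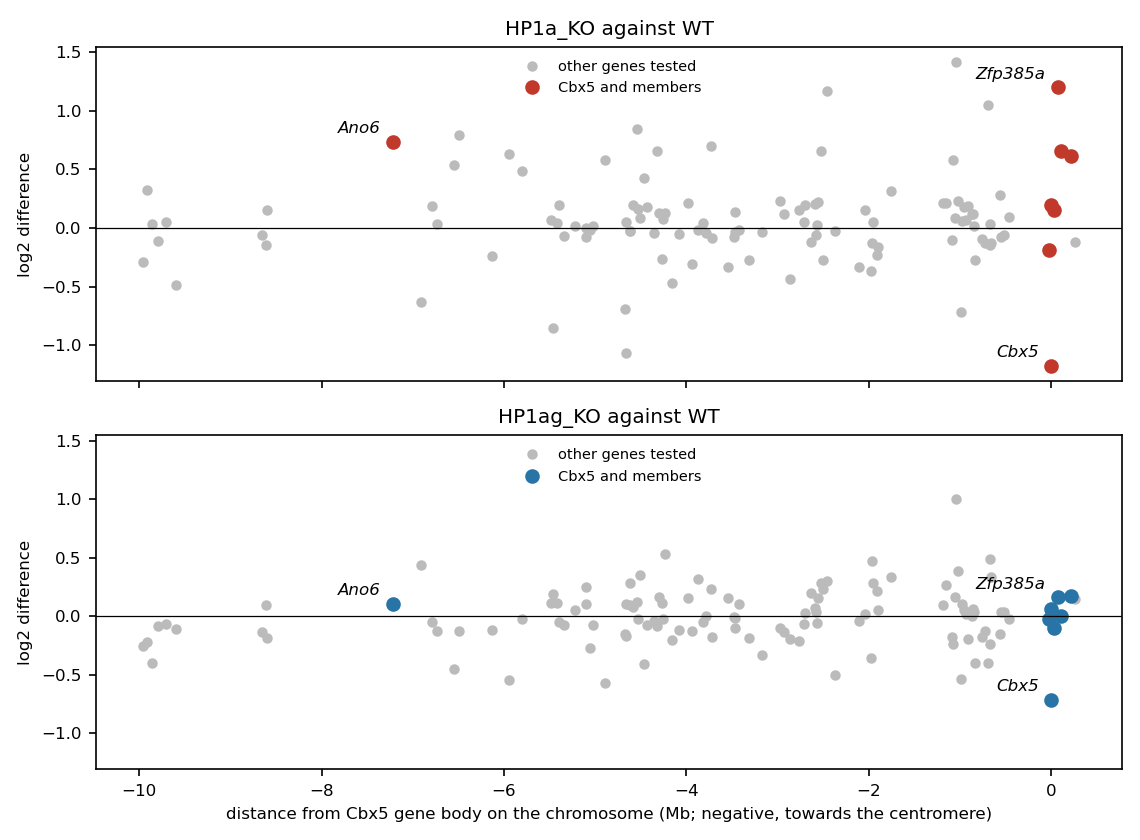
Log2 difference from WT (vertical axis) of tested genes against their distance from the Cbx5 gene body in Mb (horizontal axis, negative towards the centromere) in HP1a_KO (top) and HP1ag_KO (bottom); coloured points are Cbx5 and the members and grey points other genes of chromosome 15. In HP1a_KO the points near 0 Mb run from Cbx5 at -1.18 to Zfp385a at 1.20, and Ano6 at -7.22 Mb is at 0.74.

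Markers of other liver cells stood higher in many of the same livers. Whole liver holds hepatocytes, endothelium, stellate cells and resident and blood-borne leukocytes, and in such bulk RNA more cells of a type and more RNA per cell cannot be told apart. The 7 pan-leukocyte markers (Ptprc, Coro1a, Laptm5, Cd52, Cd53, Rac2 and Arhgdib) were all higher in HP1a-null livers than in WT by their mean log2 difference, with a median of 0.27 and 0 called by limma. Their summed level was 1724 to 1786 normalised reads in WT, 2097 to 2352 in HP1a_KO, 2324 in the HP1ab_KO liver and 2303, 1560 and 1812 in HP1ag_KO. HP1ag_KO replicate 2, the lowest of the 9 for these markers, was also the lowest for Nckap1l.

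The 7 measured Kupffer cell and macrophage markers were likewise all higher, with a median of 0.35 and 0 called by limma, and summed to 9908 to 11952 in WT, 14741 to 17204 in HP1a_KO, 16659 in the HP1ab_KO liver and 10807 to 15927 in HP1ag_KO. Of 8 neutrophil markers 3 were tested and all 3 were higher (median 1.38, 0 called by limma), among them S100a8 with 15.1 ± 2.61 normalised reads in WT, 77.3 ± 20.5 in HP1a_KO and 25.6 ± 13.5 in HP1ag_KO. The defining granule genes Ltf, Camp, Mpo and Elane were at 0 in at least 1 library. Of 8 stellate cell markers 7 were higher (median 0.23), with sums of 12408 to 17443 in WT, 18756 to 19923 in HP1a_KO, 18710 in the HP1ab_KO liver and 15894 to 16957 in HP1ag_KO. Hepatocyte markers (2 of 6 higher, median -0.10) and sinusoidal endothelial markers (6 of 7 higher, median 0.05) had medians nearer 0, as had B and T lymphocyte markers (2 of 3 higher, median 0.02). Of 5 cholangiocyte markers 4 were higher (median 0.20), with sums of 628 to 1628 in WT and 673 to 1181 in HP1a-null livers. Of 3 tested megakaryocyte and platelet markers 2 were higher (median 0.11). In HP1a_KO alone against WT the median was 2.26 for neutrophil markers, with 2 of 3 called higher by DESeq2, where 0.433% of all genes were. It was 0.54 for macrophage markers (1 of 7 called by DESeq2), 0.33 for pan-leukocyte markers (0 of 7) and 0.22 for stellate markers (1 of 8), and limma called 0 in each list. The part of these cells in the differences of Zfp385a, Itga5, Nckap1l and Ano6 was not tested.

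**Figure D4:**
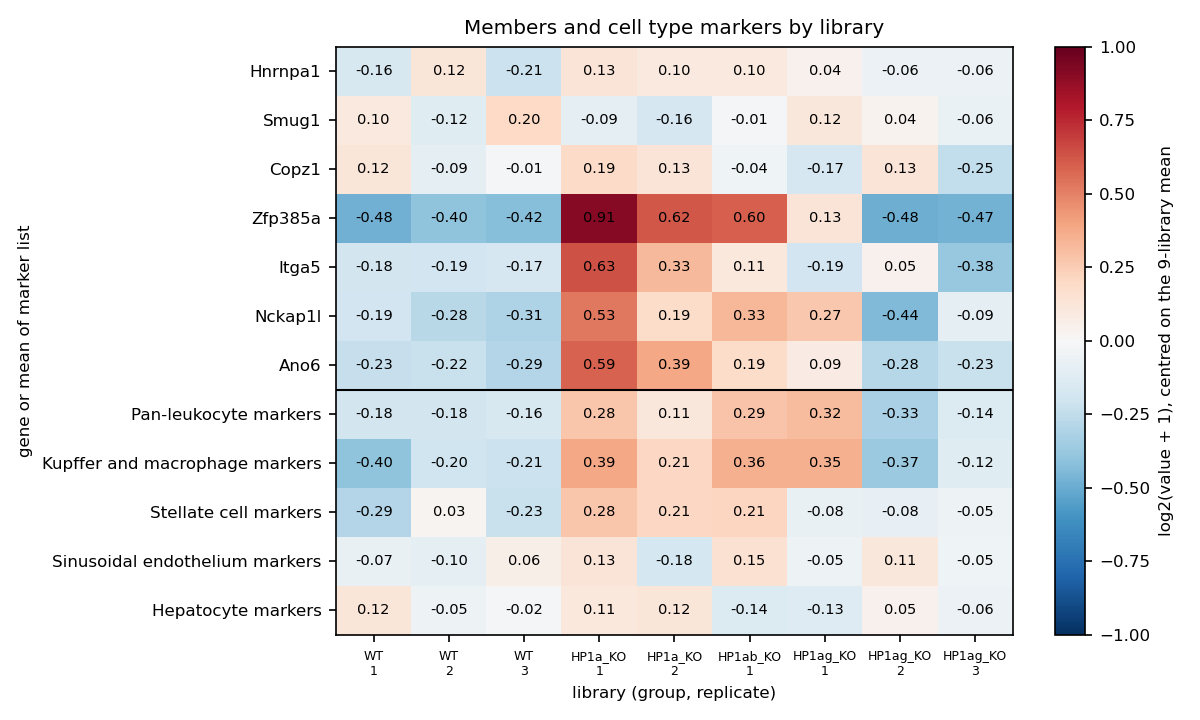
Log2(value + 1) centred on the mean of the 9 libraries (colour and printed value) for the 7 tested members and the means of 5 marker lists (rows) in each library (columns). HP1ag_KO replicate 1 has high leukocyte (0.32) and macrophage (0.35) markers together with Nckap1l at 0.27, while its Itga5 is at -0.19.

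The genes whose centred log2 levels over the 9 libraries were most like a member were found by the root mean square (RMS) difference among 10786 genes. Nearest to Nckap1l were Itgb2 (0.070), the beta chain of leukocyte integrins, Dock2 (0.081), an activator of Rac in leukocytes, and Arhgap9 (0.087). Nearest to Ano6 were Vav1 (0.074), a signalling protein of blood cells, Cd302 (0.095) and Csf2rb (0.098), a chain of cytokine receptors. Nearest to Zfp385a were Cyba (0.176), a subunit of the phagocyte oxidase, Spi1 (0.177), a transcription factor of myeloid cells, and Hpx (0.177), the haem-binding plasma protein hemopexin. Nearest to Itga5 were Dpysl2 (0.117), Abcc9 (0.119) and Rnd2 (0.127). None of these nearest genes, for any of the 4 members, was in the marker lists. Between members, Ano6 and Nckap1l were the most alike of these 4 with an RMS of 0.127. Nckap1l stood at 0.256 from Hnrnpa1, and farther from Itga5 (0.266) and Zfp385a (0.275). All of these values share the same 9 libraries and describe likeness only.

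Spi1 is given as an example. It had 84.5, 92.4 and 89.0 normalised reads in WT, 204 and 145 in the 2 HP1a_KO livers, 148 in the HP1ab_KO liver, and 139, 90.8 and 101 in HP1ag_KO, beside the Zfp385a values above. Spi1 lies on chromosome 2. Of the 12 genes named for likeness, Csf2rb lies on chromosome 15 with Cbx5 and the others on other chromosomes. Apart from Cbx5, chromosome 15 held 532 of the 13845 genes tested, so most genes of any kind lie elsewhere.

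The other genes of each member's pathway, counted without the members, gave no call by limma in HP1a-null against WT. Of 9 tested WAVE complex genes 5 were higher (median 0.04), among them Abi3 (0.38, adjusted p = 0.848), which was above WT in all 6 mutants at 129 ± 4.12 normalised reads in WT, 167 ± 23.3 in HP1a_KO, 193 in the HP1ab_KO liver and 163 ± 29.6 in HP1ag_KO. Of 11 tested integrin genes 9 were higher (median 0.14), and Itga7 was above WT in all 6 mutants (0.43, adjusted p = 0.852). Abi3 and Itga7 were named for a small p in their lists. Each was the only gene of its list above WT in all 6 mutants, as were 1.40% of all genes. The COPI coat (5 of 8 higher, median 0.04) and the hnRNP genes (6 of 17 higher, median -0.04) were close to the median of all genes, -0.01, where 48.3% of genes were higher. In HP1a_KO alone, both livers were above all WT livers in 6 of 9 WAVE complex genes (median 0.23), against 14.7% of genes. The same held for 6 of 11 integrin genes (median 0.26), with 1 integrin gene below all WT livers. It held for 2 of 8 COPI genes (median 0.13). Of 17 hnRNP genes, 2 were above and 5 below (median -0.03), and limma called none in these lists.

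Among DNA glycosylases 7 of 9 were higher (median 0.19), and among the relatives and partners of NF-E2 5 of 8 (median 0.02), with Nfe2l3 at 0.63 and Bach1 at -0.49 (adjusted p = 0.852 for both). Of 3 tested anoctamins 1 was higher (median -0.00). The 1 tested relative of Zfp385a, Zfp385b, was higher by 0.23 (adjusted p = 0.947). The piRNA pathway, to which Gtsf1 belongs, had 5 genes in the table and none at a mean of 10 normalised reads, and all 5 were at 0 in at least 1 library.

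Reads could be shared at some of these loci. Copz1 contains Mir148b on its own strand, Ano6 is overlapped by antisense genes, of which A130051J06Rik had a mean of 5.57 normalised reads, and Hnrnpa1 has processed copies elsewhere in the genome. Ano6 and its antisense partners were not told apart here, since no source used here gives the strand setting of the counting.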

How the data were processed

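Ribosomal RNA was depleted and strand-specific libraries were made from liver RNA, per the labels' protocols. Tools named in the submitters' processing notes, without their roles, are CASAVA (1.8.2), TopHat2 (2.0.10) with Bowtie2 (2.1.0), then HTSeq (0.5.4p3) and DESeq2 (1.0.19), and the build is mm10. The deposited signal is a read count scaled by a size factor for each library. Undoing that scaling (1 read is worth 0.799 to 1.83) gave whole reads for 100% of values within 0.1 read.

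The members and lists were chosen with earlier results of these data known. Limma 3.58.1 (R 4.3.3, mean trend) tested log2(value + 1) for genes with a mean of at least 10, with Benjamini-Hochberg adjustment over all genes and a threshold of 0.05, in a fit of 2 groups (HP1a-null and WT) and a fit of 4 groups. The alternatives on recovered reads were DESeq2 1.42.0, which left 1632 genes without an adjusted p in HP1a_KO against WT, and edgeR 4.0.16. GENCODE M21 entries matched 98.0% of genes. Replicates are numbered in accession order. Besides Cbx5 and the members, genes named were all others within 0.25 Mb, at most 2 per list by p, and the 3 most alike for 4 members. The code was tested on simulated data.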

Additional observations from a re-analysis of the deposited data

How the results depend on the processing

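Under the alternatives tried (pseudocounts of 0.5 and 5, other filters, scaling, weights, tools, a block for consecutive animal numbers and leaving out each library), no member changed its side of the threshold except under DESeq2, as reported above. In HP1a-null against WT, genes called were 1 without the mean trend, 1 with the HP1ag_KO livers left out and 28 with DESeq2. DESeq2 called 99 in HP1ag_KO against WT, 87 in HP1a_KO against WT, 11 in HP1ab_KO against WT and 457 in HP1ag_KO against HP1a_KO. In HP1a_KO against WT a pseudocount of 5 and array weights each gave 1. In HP1ab_KO against WT, 54 were called with no filter. In HP1ag_KO against HP1a_KO, 7 were called without the trend and 26 with array weights. Leaving out 1 library gave 0 to 1, 0 to 2, 0 to 5, 0 to 2 and 0 to 78 genes for HP1a-null, HP1ag_KO, HP1a_KO and HP1ab_KO against WT and HP1ag_KO against HP1a_KO. The highest came without WT replicate 3, HP1ag_KO replicate 1, HP1a_KO replicate 2, WT replicate 3 and WT replicate 1.

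Signs changed for the differences named next, and the cause was not tested. Not all were among the smallest. In HP1ag_KO against WT, Zfp385a (0.16) and Nckap1l (0.17) were above the median absolute difference of all genes (0.15). Copz1 in HP1a-null against WT was 0.0071 with TMM scaling, 0.0071 with equal totals, 0.015 with array weights, 0.0025 with DESeq2, 0.013 with edgeR, 0.0023 as the mean of the 3 mutant groups, 0.087 with the HP1ag_KO livers left out and -0.056 to 0.052 leaving out 1 library. In HP1ag_KO against WT, array weights gave -0.012 for Hnrnpa1 and -0.064 for Itga5, the block -0.016 for Itga5, and equal totals 0.026 for Smug1. Leaving out 1 library there gave -0.0061 to 0.161 for Hnrnpa1, -0.118 to 0.044 for Smug1, -0.042 to 0.266 for Zfp385a, -0.105 to 0.107 for Itga5, -0.0063 to 0.348 for Nckap1l and -0.0076 to 0.177 for Ano6. In HP1ab_KO against WT it gave -0.158 to 0.0044 for Smug1 and -0.094 to 0.014 for Copz1. In HP1a-null against WT the median within 0.5 Mb of Cbx5 was 0.11, and 0.12 for genes with a mean of at least 50. With other windows it was 0.20 within 0.25 Mb and 0.05 within 1 Mb. The block for consecutive animal numbers called 0 genes in each of the 5 comparisons; in the fit of 4 groups it was added after seeing the data. Replicate numbers follow accession order and pair no livers.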

Other observations

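Red cell precursor genes, among which Nfe2 is known to act, differed between the mutant groups in the sign of their median difference. The WT spread was wide, and the 8 measured erythroid markers summed to 7034 to 16735 normalised reads in WT. Sums were 10350 and 12198 in HP1a_KO, inside that range, 18180 in the HP1ab_KO liver and 5213 to 8634 in HP1ag_KO. Of 7 tested erythroid markers 5 were higher than WT in HP1a_KO (median log2 difference 0.79), 5 in HP1ab_KO (1.58) and 0 in HP1ag_KO (-0.39), none called by limma; the difference in direction was not tested. Alas2, the first enzyme of haem synthesis in red cells, was below WT in all 6 mutants. It stood at 3999 ± 1013 normalised reads in WT (SD, n = 3), 2418 ± 558 in HP1a_KO (n = 2), 2410 in the HP1ab_KO liver and 1841 ± 976 in HP1ag_KO (n = 3), a difference of -0.99 that limma did not call (adjusted p = 0.852).

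Some animals carry consecutive numbers across groups. HP1ag_KO replicate 1 against WT replicate 3 gave log2 differences of 0.56 for Zfp385a, 0.58 for Nckap1l, 0.37 for Ano6 and -0.03 for Itga5. HP1ag_KO replicate 3 against WT replicate 2 gave -0.07, 0.19, -0.00 and -0.18. The same pairs gave -0.59 and -0.63 for Cbx5 and 0.25 and -0.18 for Hnrnpa1.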
